A study of Drosophila melanogaster with 6 samples.

Results

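The features of the ribosomal RNA repeat were followed through 6 eCLIP libraries: the precursor (pre-rRNA), the 18S, 28S, 5.8S and 2S rRNAs cut from it, and the damaged copies (rRNA-Psi) that lie among the repeats. They were chosen by name, as every feature of the rRNA class except those named 5S, together with every feature whose class contains rRNA-Psi. This gave 79 of 123041 annotated features. Of these, 73 belong to the nuclear repeat: 4 pre-rRNA, 3 18S, 2 28S, 4 5.8S and 4 2S features, 20 further 28S entries named 28S_Dme, 17 named 28S_Hsa, and 19 pseudogene or pseudogene intron features. The rule also took in 2 mitochondrial rRNAs and 4 5S pseudogenes, which were counted as members but kept out of the sums over the nuclear repeat.

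The libraries were made from OSS cells, a Drosophila melanogaster line derived from the somatic cells that sheathe the ovary. All 6 were made from cells transfected with a pAWG plasmid that expresses Asterix (Gtsf1), a zinc finger protein of the piRNA pathway, with a C-terminal TEV-Strep tag under the act5c promoter. The cells were taken 72 h after transfection. In eCLIP, RNA is crosslinked to protein with ultraviolet light and trimmed with RNase I (5 min here), the protein is pulled down, and the RNA that comes with it is sequenced beside an input. There were 2 libraries of crosslinked IP and 2 of crosslinked input, for which the cells received 400 mJ of light at 254 nm. Cells without irradiation gave 1 library of non-crosslinked IP and 1 of non-crosslinked input. IP stands for the pull-down on MagStrep beads. The tagged protein was overexpressed from a plasmid in every group, and no cells without it were analysed here. The labels do not say whether the replicates are separate cultures, so p-values measure the spread between these libraries, which may be technical. Summed markers of ovarian somatic cells reached 238 to 306 CPM (counts per 1000000 annotated reads) in the 3 inputs and those of the germline 3.61 to 5.796 CPM. Of the germline markers, osk and bam were at 0 and krimp was the highest, at 2.56 to 4.47 CPM. Markers of blood-like and embryonic lines summed to 21.5 to 27.9 CPM in the inputs, most of it from srp, at 21.0 to 27.1 CPM.

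In flies, as in other eukaryotes, RNA polymerase I transcribes the repeat into a long precursor, from which the rRNAs are cut and trimmed in the nucleolus. The order along the precursor is the external spacer, 18S of the small ribosomal subunit, an internal spacer, 5.8S, and 28S of the large subunit. The fly 5.8S region is cut once more, which releases the short 2S rRNA, and fly 28S is cleaved within its length into a pair of fragments that stay paired. The retrotransposons R1 and R2 insert into some 28S copies and leave them interrupted.

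The reference gene table (Release 6) holds 40 of the 79 features. On the unlocalised sequence it assigns to X and Y, pre-rRNA CR45847 spans 66807 to 74924 (8118 bases) and holds 18S CR45841, 5.8S CR45842, 2S CR45843 and 28S CR45844. The external spacer before 18S covers 861 bases, the spacer between 18S and 5.8S 726 bases, the gap between 5.8S and 2S 28 bases and the spacer before 28S 385 bases. Mature 18S is 1995 bases long, 5.8S 123, 2S 30 and the longer 28S 3970. CR45845 (42623 to 49485 of the same sequence) has the same layout but a shorter 28S of 2715 bases, CR45837. CR45846 (55104 to 59294) holds no listed 28S, has 694 bases between 18S and 5.8S, and runs 460 bases past its 2S. CR45856 lies on X (23278007 to 23283731) and holds 5.8S CR40454 between a 28S and an 18S pseudogene that are not among the features counted. The 28S_Dme, 28S_Hsa and mitochondrial names have no entry in the table.

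A read in a mature rRNA also lies in its precursor and in every other copy with the same sequence, and the deposited counts appear to divide it among them. This was inferred from the near-equal copies below and is not stated in the sources used here, and the sums and remainders given further on depend on it. The 3 18S copies differed by at most 1.13-fold within a library, and 3 of the 4 5.8S copies by at most 1.003-fold. The pre-rRNA features together held 49.5% to 50.7% of the reads of the nuclear repeat in every library. Copies of one species are therefore not independent, and the species sum is the quantity given first below. The 28S sum covers CR45837 and CR45844 only, and the 28S_Dme entries are summed apart. Replicates differed by more than counting noise, with a chi-square per degree of freedom of 14.3 between the crosslinked IP libraries and 16.1 between the crosslinked inputs. Annotated reads numbered 2206919 and 2921685 in the crosslinked IP libraries, against 12391586 and 13658478 in the crosslinked inputs, and 2018241 in the non-crosslinked IP, against 12499302 in the non-crosslinked input. A level of 3 reads corresponds to 1.03 to 1.49 CPM in IP libraries and to 0.220 to 0.242 CPM in inputs. Of the 79 members, 26 never exceeded 3 reads: all 17 28S_Hsa entries (at most 0.182 reads), 5 28S_Dme entries, the 3 2S pseudogenes and a 5.8S pseudogene.

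The nuclear repeat took a smaller share of the pull-downs than of the inputs. It made up 63.0% and 63.5% of annotated reads in the crosslinked IP libraries, against 79.3% and 81.3% in the crosslinked inputs. Without crosslinking it made up 59.5% of the IP (95% Wilson interval 59.5% to 59.6%), against 85.0% of the input. The species differed in this: 18S had a larger share of the crosslinked IP than of its input, while 28S and 5.8S had smaller ones.

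The 18S sum was 8.85% and 9.71% of annotated reads in the crosslinked IP libraries, against 5.36% and 5.91% in the crosslinked inputs. Without irradiation 18S was 2.25% of the IP (interval 2.23% to 2.27%), against 4.07% of the input (interval 4.06% to 4.08%). The crosslinked IP libraries were the highest of the 6 and the non-crosslinked IP the lowest. The log2 ratio of the crosslinked IP mean over the crosslinked input mean was 0.72, and it was 0.72 in each of the numbered pairs. Without crosslinking the IP over input ratio had the opposite sign, -0.86. The crosslinked difference depended on the total: taken against annotated reads without any rRNA class, the ratio turned to -0.40.

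The 28S sum was 16.0% and 15.1% in the crosslinked IP libraries, against 28.9% and 28.9% in the crosslinked inputs. It was 21.7% of the non-crosslinked IP, against 33.4% of the non-crosslinked input. Both IP groups lay below every input, by a log2 ratio of -0.89 with crosslinking and -0.62 without. As shares, the 28S_Dme entries, left out of this sum, went the other way, at 6.35% and 6.70% in the crosslinked IP libraries, against 4.17% and 4.68% in the crosslinked inputs. The 28S_Dme direction depended on the total: against annotated reads without any rRNA class the ratio turned negative. The 5.8S sum was 0.447% and 0.382% in the crosslinked IP libraries, against 1.35% and 1.38% in the crosslinked inputs. It was 1.22% of the non-crosslinked IP, against 1.63% of the non-crosslinked input. Here the crosslinked IP libraries stood apart from the other 4, with a log2 ratio to their input of -1.72, against -0.42 without crosslinking. With 2 libraries against 2, the exact two-sided permutation test gave p = 0.333 for each of these sums, the smallest it can give.

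**Figure D1:**
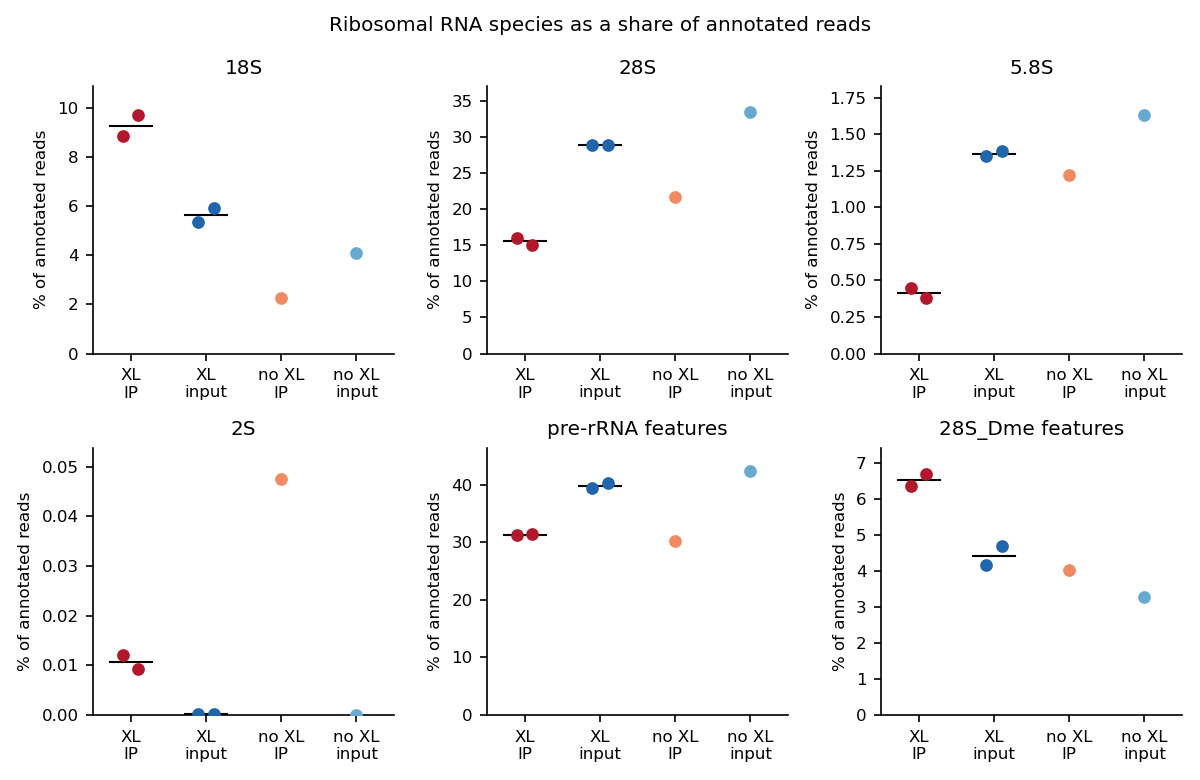
Share of annotated reads (percent, linear axes from 0) taken by each rRNA species in each library. XL means crosslinked, each point is a library, and bars mark the mean of the 2 crosslinked libraries. 18S is highest in the crosslinked IP (8.85% and 9.71%) and lowest in the non-crosslinked IP (2.25%), while 28S and 5.8S are lowest in the crosslinked IP.

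Ratios inside a library do not depend on how libraries are scaled. Without the 28S_Dme entries, the ratio of 28S to 18S reads was 1.81 and 1.55 in the crosslinked IP libraries, against 5.39 and 4.89 in the crosslinked inputs. It was 9.62 in the non-crosslinked IP, against 8.20 in the non-crosslinked input. The 2 crosslinked IP libraries thus had the lowest ratios of the 6, at 1.68 ± 0.184, against 5.14 ± 0.349 in the crosslinked inputs (mean ± SD, n = 2 each), a log2 difference of -1.61. The non-crosslinked IP moved slightly the other way from its input, by 0.23. Leaving out any one of the 4 crosslinked libraries kept the log2 difference between -1.73 and -1.50. The exact two-sided permutation p was again 0.333. Within the reads of the repeat, 18S took 14.04% and 15.3% in the crosslinked IP libraries, against 6.75% and 7.27% in the crosslinked inputs, and 28S took 25.4% and 23.7%, against 36.4% and 35.6%.

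5.8S and 28S are paired to each other in the large subunit. Their ratio, again without the 28S_Dme entries, also differed. It was 0.0279 and 0.0254 in the crosslinked IP libraries, against 0.0469 and 0.0479 in the crosslinked inputs. It was 0.0565 in the non-crosslinked IP, against 0.0489 in the non-crosslinked input. The non-crosslinked IP stayed close to the inputs and the crosslinked IP libraries lay below all 4 others.

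**Figure D2:**
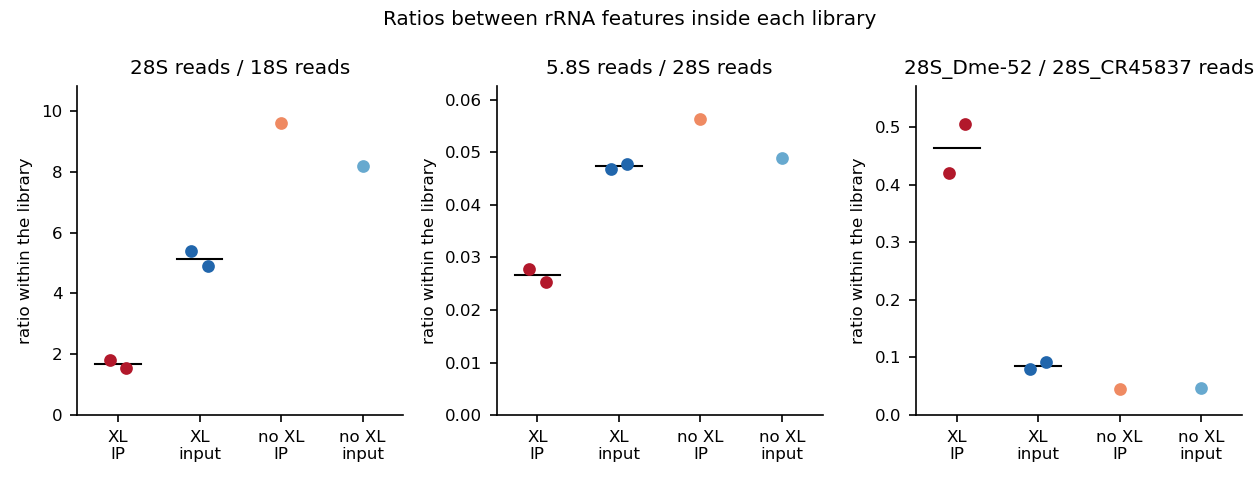
Ratios of reads between rRNA features inside each library (linear axes from 0). XL means crosslinked, each point is a library, and bars mark the mean of 2. Without the 28S_Dme entries, the 28S to 18S ratio is 1.81 and 1.55 in the crosslinked IP libraries, below every other library.

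Single features were fitted over the whole table by edgeR's quasi-likelihood test, with p-values adjusted by Benjamini-Hochberg and a threshold of 0.05. The fit scales libraries by TMM factors, which set the middle of all features near 0 rather than the total. Of 13471 features tested between crosslinked IP and crosslinked input, 55.4% were called, 29.6% higher and 25.8% lower in the IP. Of the 79 members, 51 passed the filter on low counts: 15 were higher, 22 lower and 14 not past the threshold. Their median log2 fold change was -0.36, against -0.03 over all features tested. A count filter keeps a rare feature mainly through the group where it is high, so these counts describe the members that passed and not all 79. With library size alone the median of all features moved to 0.76 and the members split into 26 higher and 11 lower, with 44.4% of all features higher and 7.9% lower. With library size without rRNA the median moved to -0.35 and the split was 14 higher and 28 lower, with 24.9% of all features higher and 35.1% lower.

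The 18S copies carry the decoding site of the small subunit. 18S CR45838 had 29721 and 32581 CPM in the crosslinked IP libraries, against 18581 and 20425 CPM in the crosslinked inputs. On the TMM scale its log2 fold change was -0.12 (SE 0.29, adjusted p = 0.729), and it turned to 0.68 (adjusted p = 0.00142) with library size alone. The other copies, CR41548 and CR45841, had fitted changes of -0.10 and -0.00375. None of the 3 was past the threshold. The authors' deposited table lists a ratio of 2.75 to 3.00 for these copies, with no formula stated.

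28S forms the catalytic core of the large subunit together with 5.8S. The longer copy, 28S CR45844, had 104957 and 100499 CPM in the crosslinked IP libraries, against 182660 and 185042 CPM in the crosslinked inputs. It fell by 1.64 on the log2 scale (SE 0.36, adjusted p = 0.00515). The shorter copy, CR45837, fell by 1.79 (SE 0.34, adjusted p = 0.00280). The 28S calls rest on both IP libraries: without crosslinked IP replicate 1 the longer and shorter copies were at -1.38 and -1.57 (adjusted p = 0.285 and 0.186), and without replicate 2 at -1.24 and -1.35 (adjusted p = 0.345 and 0.259). Both copies were negative under every alternative run, from -2.34 to -0.84.

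All 4 5.8S copies fell. CR45842 had 1248 and 1048 CPM in the crosslinked IP libraries, against 3609 and 3722 CPM in the crosslinked inputs, a log2 fold change of -2.47 (SE 0.26, adjusted p = 0.000188). CR45839 and CR45852, which share its reads, had log2 fold changes of -2.48 and -2.47. The copy on X, CR40454, fell by 2.73 (SE 0.26, adjusted p = 0.000104). These calls stood under every alternative run, with adjusted p-values up to 0.0100. Of the 4 copies, 3 are listed in the authors' deposited table, at 0.108 to 0.109.

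The short 2S rRNA went the other way from 5.8S, its neighbour in the precursor. The copy CR45864 had 30.6 and 23.2 CPM in the crosslinked IP libraries, against 0.334 and 0.544 CPM in the crosslinked inputs. In reads, a 2S copy held 65.6 to 67.9 in the crosslinked IP libraries, against 4.14 and 7.43 in the crosslinked inputs. The fitted log2 fold changes were 5.12 to 5.15. They are given as a description, since 2S passed the filter on low counts only through the IP, where it was high, and the 4 copies share their reads. Without crosslinking CR45864 reached 120 CPM in the IP, the highest of the 6, and under 1 read in the input. Set against a floor of 3 reads in that input, it was at least 501-fold higher in the non-crosslinked IP. The 2S sum was 0.0121% and 0.00922% of annotated reads in the crosslinked IP libraries, against 0.000134% and 0.000218% in the crosslinked inputs, so it remained a trace of the repeat in every library.

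Among the precursors, those that hold a listed 28S copy fell, and the other two were not past the threshold. The pre-rRNA sum was not past it either, at -1.15 (SE 0.60, adjusted p = 0.133). CR45847 had 143334 and 144097 CPM in the crosslinked IP libraries, against 205154 and 209327 CPM in the crosslinked inputs (log2 fold change -1.33, SE 0.36, adjusted p = 0.0137). CR45845 fell by 1.30 (SE 0.34, adjusted p = 0.0124). Neither call held without crosslinked IP replicate 1 (adjusted p = 0.438 and 0.418) or replicate 2 (adjusted p = 0.487 and 0.477). CR45846, which holds no listed 28S, had 32432 and 35021 CPM, against 23989 and 25851 CPM (log2 fold change -0.36, SE 0.29, adjusted p = 0.310). CR45856 on X had 44481 and 44297 CPM, against 35772 and 38061 CPM (-0.53, SE 0.30, adjusted p = 0.162). The difference between the precursors was not tested.

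**Figure D3:**
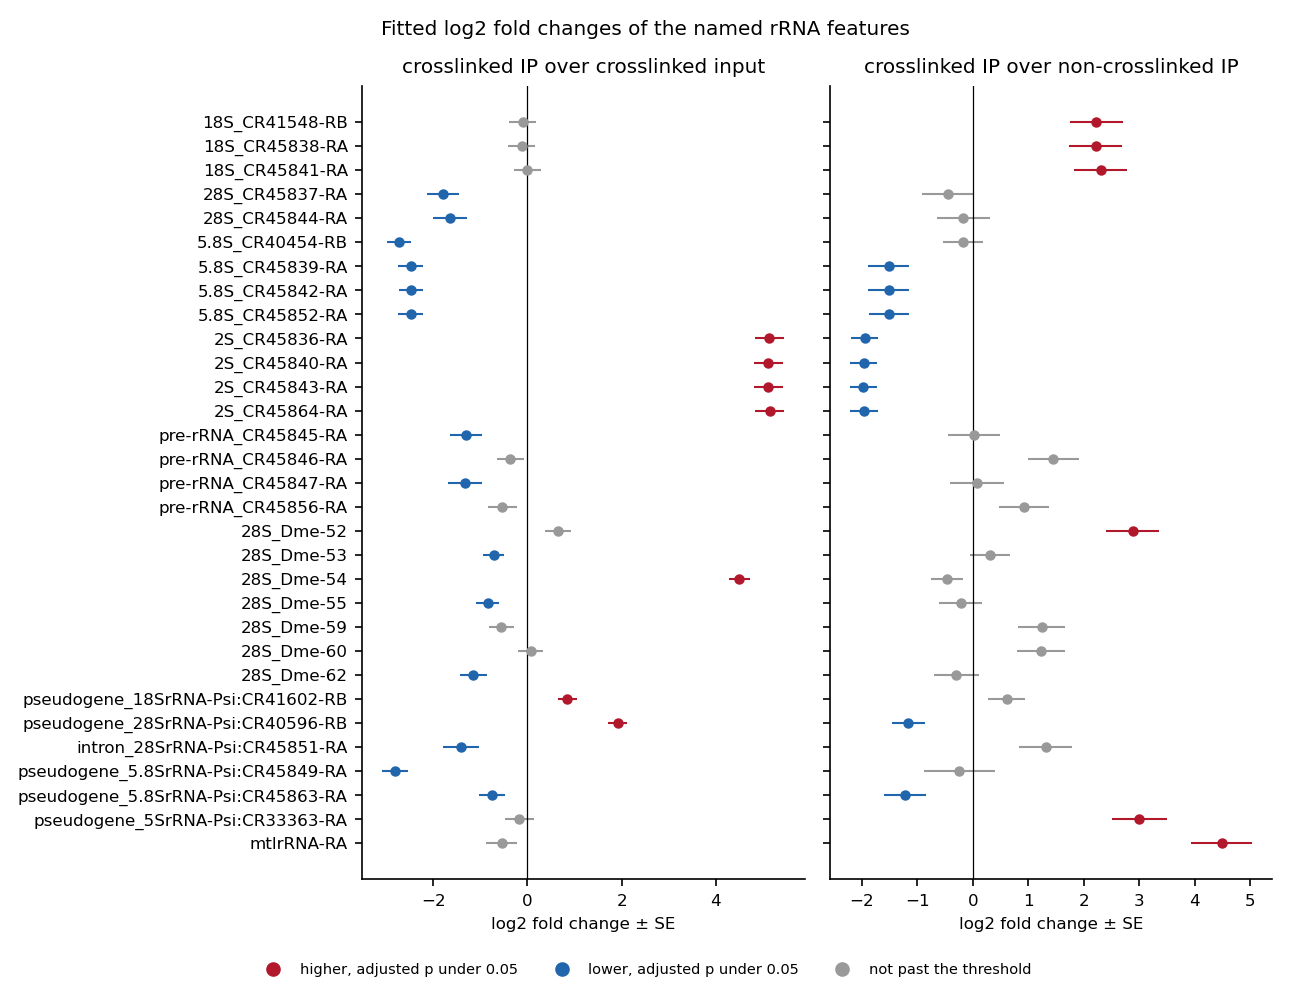
Fitted log2 fold changes with standard errors for the named rRNA features that were tested, crosslinked IP over crosslinked input on the left and crosslinked IP over non-crosslinked IP on the right. 5.8S and 28S copies lie below 0 against the input and 2S copies above it. 18S copies lie near 0 against the input and above 2 against the non-crosslinked IP.

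To look at reads outside the mature parts, the counts of the listed mature parts were subtracted from those of their precursor. This measure was chosen after values had been seen, and it presumes that a read in a mature part is divided equally between the part and its precursor. CR45846 holds the external and internal spacers but no listed 28S. Its remainder was 1437 and 1372 CPM in the crosslinked IP libraries, against 1799 and 1705 CPM in the crosslinked inputs, and 2576 CPM in the non-crosslinked IP, against 3391 CPM in the non-crosslinked input. CR45845 and CR45847 have the same spacers in front of a 28S part. The remainder of CR45847 was 7764 and 10275 CPM in the crosslinked IP libraries, against 2002 and 1916 CPM in the crosslinked inputs, and 12525 CPM in the non-crosslinked IP, against 3541 CPM in the non-crosslinked input. That of CR45845 was 5832 and 7467 CPM, against 1925 and 1835 CPM, and 9082 CPM, against 3478 CPM. CR45856, which holds no listed 28S copy, had 43747 and 43616 CPM left in the crosslinked IP libraries, against 33054 and 35383 CPM in the crosslinked inputs, and 26128 CPM in the non-crosslinked IP, against 23106 CPM in the non-crosslinked input. From CR45856 only the 123 bases of CR40454 were subtracted, and the 5602 bases left include pseudogenes not among the features counted. Its remainder was 98.3% and 98.5% of its reads in the crosslinked IP libraries, against 92.4% and 93.0% in the crosslinked inputs. It is therefore close to the whole precursor and does not isolate reads of spacers. For the other precursors, the remainder was higher in both kinds of IP for CR45845 and CR45847 and lower for CR45846. Whether the excess in CR45845 and CR45847 comes from spacers or from the way 28S reads were divided was not tested.

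**Figure D4:**
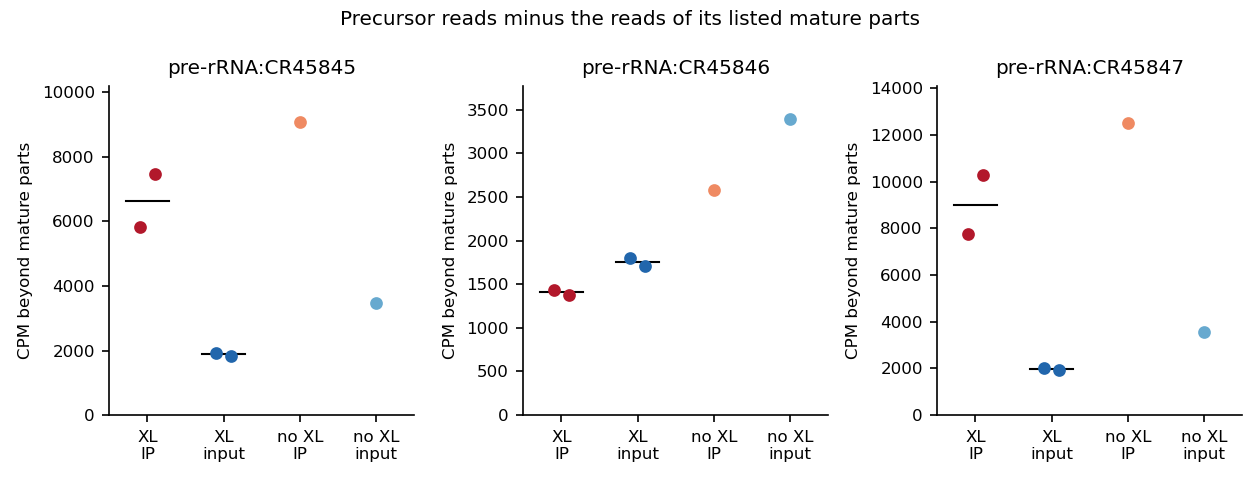
Reads of 3 precursors left after the counts of their listed mature parts are subtracted, in CPM (linear axes from 0, a different range in each panel). XL means crosslinked, each point is a library, and bars mark the mean of 2. CR45845 and CR45847 are higher in both kinds of IP than in the inputs, and CR45846 is not.

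Per length, the mature species also ranked differently. The values are those of single copies that share reads, so ranks between species depend on how many copies are listed. The 18S copies had 14704 to 14898 and 16167 to 16331 CPM per kilobase in the crosslinked IP libraries, against 8462 to 9314 and 9347 to 10238 in the crosslinked inputs. The 28S copies had 20417 to 26437 and 18499 to 25315, against 39005 to 46010 and 38318 to 46610. The 5.8S copy CR45842 had 10150 and 8520, against 29341 and 30257, and CR40454 had 5968 and 5544, against 22091 and 21769. In the crosslinked IP 5.8S therefore lay below 18S, and in the crosslinked inputs above it. The 2S copies stayed lowest, at 763 to 1021, against 11.1 to 18.1.

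The 28S_Dme entries, whose place in the genome the sources used here do not give, summed to 6.35% and 6.70% of annotated reads in the crosslinked IP libraries, against 4.17% and 4.68% in the crosslinked inputs. They took 4.01% of the non-crosslinked IP, against 3.26% of the non-crosslinked input. On the TMM scale of the edgeR fit the 28S_Dme sum was not higher against the crosslinked input, at -0.23 (SE 0.43, adjusted p = 0.655). Of the 20 entries, 13 were tested against the input: 6 were higher and 3 lower. Of the higher ones, 28S_Dme-47, 28S_Dme-58 and 28S_Dme-61 passed the filter on low counts only with the IP libraries. The count of higher entries is therefore a description. Of all features tested, 29.6% were higher and 25.8% lower. The entries did not all go the same way. 28S_Dme-52 had 23313 and 25436 CPM in the crosslinked IP libraries, against 8403 and 9529 CPM in the crosslinked inputs, and 3806 CPM in the non-crosslinked IP, against 5471 CPM in the non-crosslinked input. The crosslinked IP libraries were highest by a wide margin, yet on the TMM scale the change from input was 0.65 (SE 0.27, adjusted p = 0.0739). Its reads relative to the shorter 28S copy were 0.421 and 0.506 in the crosslinked IP libraries, against 0.0794 and 0.0916 in the crosslinked inputs, and 0.0457 in the non-crosslinked IP, against 0.0475 in the non-crosslinked input. 28S_Dme-62 went with the 28S copies, at 13425 and 12445 CPM, against 15892 and 17119 CPM, and fell by 1.15 (SE 0.28, adjusted p = 0.00906). That call was lost without crosslinked IP replicate 1 (-0.91, adjusted p = 0.353) or replicate 2 (-0.72, adjusted p = 0.475), and with library size alone (-0.35, adjusted p = 0.0797).

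The largest rise of a 28S_Dme entry was that of 28S_Dme-54, with 271 and 254 CPM in the crosslinked IP libraries, against 5.86 and 7.51 CPM in the crosslinked inputs (log2 fold change 4.50, SE 0.22, adjusted p = 9.30e-06). Without crosslinking it stood at 416 CPM in the IP, against 3.98 CPM in the input. 28S_Dme-56 rose by 2.06 (adjusted p = 0.000307). 28S_Dme-47 and 28S_Dme-61 had fitted changes of 3.72 and 3.67 on at most 7.99 reads in a crosslinked input, and passed the filter through the IP alone, so these are a description. Of the abundant entries, 28S_Dme-55 fell by 0.84 (adjusted p = 0.0204) and 28S_Dme-53 by 0.72 (adjusted p = 0.0276). Neither call held without crosslinked IP replicate 1 (adjusted p = 0.457 for 28S_Dme-55 and 0.496 for 28S_Dme-53) or replicate 2 (0.653 and 0.687). With library size alone 28S_Dme-55 was at -0.05 (adjusted p = 0.827) and 28S_Dme-53 turned to 0.08. 28S_Dme-59 and 28S_Dme-60 were at -0.55 (adjusted p = 0.107) and 0.07 (adjusted p = 0.826).

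The damaged copies held little of the repeat. The 9 28S pseudogenes summed to 0.0459% and 0.0461% of annotated reads in the crosslinked IP libraries, against 0.0217% and 0.0231% in the crosslinked inputs, and to 0.101% of the non-crosslinked IP, against 0.0296% of the non-crosslinked input. Of the 9, 2 were higher and 5 lower than the crosslinked input in the fit, where 29.6% of all features were higher and 25.8% lower. The most abundant, CR40596, had 277 and 247 CPM, against 38.7 and 41.4 CPM, and rose by 1.91 (SE 0.20, adjusted p = 0.000180). Without crosslinking the same pseudogene stood at 676 CPM in the IP, against 54.9 CPM in the input. The 18S pseudogene CR41602 rose by 0.85 (SE 0.20, adjusted p = 0.00720), at 18.1 and 22.2 CPM, against 6.46 and 6.52 CPM. Without crosslinked input replicate 1 it was at 0.57 (adjusted p = 0.161) and without replicate 2 at 0.32 (adjusted p = 0.460). The intron of the 28S pseudogene CR45851 fell by 1.41 (SE 0.38, adjusted p = 0.0140), and its crosslinked IP replicates lay far apart, at 517 and 1105 CPM, against 1407 and 1022 CPM. Without crosslinked IP replicate 1 it was at -0.66 (adjusted p = 0.340). Of the 4 5.8S pseudogenes, 3 were tested and all 3 were lower. CR45849 fell by 2.80 (SE 0.27, adjusted p = 0.000127), on 5 and 8 reads in the crosslinked IP libraries, against 125 and 142 in the crosslinked inputs. CR45863 fell by 0.76 (SE 0.27, adjusted p = 0.0430). For CR45863 the direction turned to 0.04 with library size alone, and the call was lost without crosslinked IP replicate 1 (-0.33, adjusted p = 0.478) or replicate 2 (-0.54, adjusted p = 0.368).

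The crosslinked IP was then set against the non-crosslinked IP, to see what crosslinking adds to the pull-down. The non-crosslinked IP is a single library, whose spread is assumed to be like that of the other groups in one fit of all 6. Of 20199 features tested, 10.2% were called, 3.58% higher and 6.6% lower in the crosslinked IP. Of the 53 members that passed the filter, 12 were higher and 10 lower. Their median log2 fold change was 0.08, against 0.18 over all features. The split depended on the scaling: with DESeq2 size factors 8 members were higher and 13 lower, and 14.8% of all calls were higher, against 35.1% with TMM. This comparison shares its crosslinked IP libraries with the one against the input. For the sums, the log2 ratio of crosslinked IP to non-crosslinked IP share was 2.04 for 18S, -0.48 for 28S, -1.56 for 5.8S and 0.05 for pre-rRNA.

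All 3 18S copies were higher in the crosslinked IP than in the non-crosslinked IP. CR45838 had 29721 and 32581 CPM, against 7738 CPM, and rose by 2.21 (SE 0.47, adjusted p = 0.00464). CR41548 and CR45841 rose by 2.23 and 2.31. The call needed both crosslinked IP libraries. Without replicate 1 the 3 copies were at 1.91 to 2.00 (adjusted p from 0.111 to 0.141), and without replicate 2 at 1.77 to 1.85 (adjusted p from 0.167 to 0.188). 28S_Dme-52 rose by 2.88 (SE 0.48, adjusted p = 0.000580) and 28S_Dme-56 by 1.20 (adjusted p = 0.0320). Of the 15 28S_Dme entries tested here, 3 were higher and none lower, where 3.58% of all features were higher and 6.6% lower. Neither 28S copy was past the threshold, at -0.17 (SE 0.48) for the longer and -0.45 (SE 0.46) for the shorter.

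Of the 4 5.8S copies, 3 were lower than in the non-crosslinked IP, but the 5.8S sum was not past the threshold, at -1.38 (SE 0.44, adjusted p = 0.0587). CR45842 had 1248 and 1048 CPM, against 3775 CPM, and fell by 1.52 (SE 0.37, adjusted p = 0.0114). Without crosslinked IP replicate 2 the adjusted p of these copies was 0.0720 to 0.0726. CR40454 on X had 734 and 682 CPM, against 926 CPM, with a change of -0.18 (SE 0.36, adjusted p = 0.795). All 4 2S copies fell, by 1.95 to 1.97 (adjusted p = 0.000133 for each), so 2S was higher than the input in both kinds of IP and highest without crosslinking. The 28S pseudogene CR40596 fell by 1.16 (adjusted p = 0.0160). No pre-rRNA was past the threshold, and CR45846 had a change of 1.45 (SE 0.46, adjusted p = 0.0515).

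The members that lie outside the nuclear repeat were also compared between the IP groups. The large mitochondrial rRNA, part of the mitochondrial ribosome, had 3509 and 5201 CPM in the crosslinked IP libraries, against 224 CPM in the non-crosslinked IP, and rose by 4.49 (SE 0.55, adjusted p = 0.000117). The small mitochondrial rRNA rose by 3.46 (SE 0.43, adjusted p = 0.000133). The inputs differed in the same direction, where the large one had 4221 and 2920 CPM after crosslinking, against 662 CPM without. Neither was past the threshold against the crosslinked input (-0.54, adjusted p = 0.191, and 0.63, adjusted p = 0.0624). The 5S pseudogene CR33363 rose by 3.00 over the non-crosslinked IP (SE 0.49, adjusted p = 0.000529), at 61.2 and 69.8 CPM, against 9.41 CPM. CR33356 rose by 2.92 (adjusted p = 0.0193), at 13.1 and 19.3 CPM, against 2.48 CPM. The 5S class itself, transcribed by RNA polymerase III, had 46673 and 56026 CPM, against 6927 CPM. Its inputs differed the same way, at 61685 and 41265 CPM after crosslinking, against 20947 CPM without. Against its own input the crosslinked IP had a 5S change of -0.87 on the TMM scale (SE 0.33, adjusted p = 0.0387), although in CPM the IP libraries lay between the inputs.

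Whether the IP over input ratio differed between crosslinked and non-crosslinked cells was tested as the difference of the ratios in the same fit. Of the 20199 features, 2.68% were called, 1.86% with a higher and 0.822% with a lower ratio after crosslinking. Of the 53 members, 2 had a higher and 8 a lower ratio. With DESeq2 size factors these were 0 and 8, and 17.2% of all calls were higher, against 69.4% with TMM. The 18S copies had differences of 1.80 to 1.85, with adjusted p from 0.113 to 0.125, not past the threshold. Over the alternatives run the difference stayed positive, from 1.37 to 2.09, and the adjusted p ran from 4.37e-05 to 0.540. The 28S_Dme-52 entry had a difference of 2.22 (SE 0.59, adjusted p = 0.0499). That call was lost with DESeq2 size factors (adjusted p = 0.156) and without crosslinked IP replicate 1 (adjusted p = 0.279) or replicate 2 (adjusted p = 0.357).

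The ratio of 5.8S CR40454 was lower with crosslinking by 2.40 (SE 0.52, adjusted p = 0.0196). Its levels were 734 and 682 CPM in the crosslinked IP libraries, against 2717 and 2678 CPM in the crosslinked inputs, and 926 CPM in the non-crosslinked IP, against 563 CPM in the non-crosslinked input. The other 5.8S copies had differences of -0.95 (adjusted p up to 0.396). CR40454 made up 0.589 and 0.652 of the mean of the other 3 copies in the crosslinked IP libraries, against 0.753 and 0.719 in the crosslinked inputs. Without crosslinking it made up 0.246 in the IP, against 0.107 in the input. The non-crosslinked libraries thus held less of this copy relative to the others. The 4 2S copies also had lower ratios after crosslinking, but with under 1 read a copy in the non-crosslinked input their fitted differences are no measure of size.

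Factors that make and process rRNA were read from the same fit against the crosslinked input. Of 6 small RNAs of pre-rRNA processing, 1 was higher and 3 lower, where 29.6% of all features were higher and 25.8% lower. The U3 snoRNAs, needed to cut 18S out of the precursor, differed by gene. U3:54Aa had 992 and 1458 CPM in the crosslinked IP libraries, against 3108 and 2123 CPM, and fell by 1.96 (SE 0.31, adjusted p = 0.000281). U3:54Ab was at -1.96 too, but its counts were near-equal to those of U3:54Aa in every library (38513 and 38512 reads in crosslinked input replicate 1). They appear to share their reads, so these are not independent calls. U3:9B was at 0.32 (adjusted p = 0.222). Of the U14 snoRNAs, which pair with 18S, U14:30Eb rose by 0.73 (SE 0.20, adjusted p = 0.00806) and U14:30Ea was at 0.23 (adjusted p = 0.340). RNase MRP RNA, which cuts the first internal spacer in yeast, had 1114 and 1822 CPM, against 1572 and 1610 CPM. It fell by 0.96 on the TMM scale (SE 0.28, adjusted p = 0.0113), although crosslinked IP replicate 2 lay above both inputs in CPM.

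Messages of the machinery were scarce. Of 27 genes for pre-rRNA processing and assembly, 19 were tested, 2 were higher and 8 lower, with a median of -1.15. Non1 (Nog1), a GTPase of large subunit assembly, was the most abundant of them, at 22.0 and 18.8 CPM, against 26.2 and 22.9 CPM, and fell by 1.14 (SE 0.23, adjusted p = 0.00135). Of 16 genes of RNA polymerase I and its factors, 6 were tested, 1 was higher and 3 lower, with a median of -1.20. Of 8 box C/D and H/ACA proteins, 5 were tested and 3 were lower, with a median of -0.97, and of 11 exosome genes 3 were tested and 2 were lower, with a median of -0.85. Of all features, 29.6% were higher and 25.8% lower, with a median of -0.03. Markers of other groups moved as well: of 8 ovarian somatic markers tested, 1 was higher and 6 lower, with a median of -0.998. Of 9 germline markers 3 were tested, 2 were higher (aub and AGO3) and 1 lower, with a median of 3.30. Of 3 markers of blood-like lines tested, 2 were higher (Hml and NimC1) and 1 lower, with a median of 2.65. In a crosslinked input aub and AGO3 had at most 2.67 reads, and Hml and NimC1 at most 7.5. Polr1C, the higher gene of RNA polymerase I, had at most 7 reads there. Non3, among the higher processing genes, had at most 13. All of these higher ones passed the filter on low counts through the IP alone, so their calls are a description. So are the medians of the germline and blood-like markers. Whether the marker groups bear on the values of the processing genes was not tested. The retrotransposon R1 fell by 0.63 (SE 0.23, adjusted p = 0.0372), on the TMM scale, although its share of annotated reads was not lower, at 117 and 105 CPM, against 105 and 83.3 CPM. R2 was at -0.49 (adjusted p = 0.0691).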

How the data were processed

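The 6 libraries fall into 4 groups by their titles. For every library the authors deposited a table with estimated counts per feature, which need not be whole because reads are shared out, and with RPM values. In a further table the authors deposited a ratio per feature, formula not stated. The submitters' processing notes name bcl2fastq 2.19, STAR 2.5.2b, bedtools 2.29.0 and the builds dm6 and mm10, with no role given. Read filters, duplicate removal and use of strand are not given in the sources used here.

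Reads outside any annotation (2.15% to 13.6% of a library) were left out. Estimated counts were rounded and fitted over all features with edgeR 4.0.16 in R 4.3.3 (TMM, filterByExpr, quasi-likelihood F test, Benjamini-Hochberg, threshold 0.05): 4 crosslinked libraries for IP against input, all 6 for the other comparisons. Alternatives used DESeq2 1.42.0 and limma 3.58.1 (log2 of RPM plus 1). The fits were also tested on simulated data in which all libraries shared the same mean profile. Only 200 features were changed, by a log2 of 2 up or down at random in the crosslinked IP. The fit of crosslinked IP against input (13471 features) recovered 65.5% of them, with 7.75% false among its calls. For crosslinked against non-crosslinked IP (20199 features) these were 34.0% and 5.56%, and for the difference of ratios 15.0% and 0%. In the data 55.4% of features were called in the first comparison, so these rates need not carry over. Processing factors named were list members past the threshold, at most the 6 with the highest mean count, with U3, U14 and RNase MRP. Polr1C and Non3 were named for their low input counts. Sums, ratios and exact permutation tests used Python 3.11.15 with scipy 1.17.1. Wilson intervals and read floors cover counting error only, since reads are not known to be separate molecules.

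Members with values were named by rule: a group mean of at least 1000 CPM, the highest of each species, or the 5 largest rises and falls. 28S_Dme-47, 28S_Dme-56, 28S_Dme-58, 28S_Dme-61 and the small mitochondrial rRNA were named after their values were seen. So were the pseudogenes CR45851, CR45859, CR33356 and CR33416. The members and lists were chosen with earlier results of these data known. Replicate numbers were not taken as pairs: the deviations of the numbered libraries correlated at r = 0.091 over 13471 features.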

Additional observations from a re-analysis of the deposited data

Results flagged for a closer look

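The IP over input ratio of 10 members differed between crosslinked and non-crosslinked cells in edgeR's quasi-likelihood test (adjusted p under 0.05, Benjamini-Hochberg over 20199 features). All values are log2 differences, crosslinked minus non-crosslinked. The 2S copies CR45836, CR45840, CR45843 and CR45864 were at -6.85, -6.87, -6.87 and -6.86, and the 5.8S copy CR40454 at -2.40. The 5.8S pseudogenes CR45849 and CR45863 were at -4.00 and -2.10, and the 5S pseudogene CR33416 at -5.76. 28S_Dme-52 was at 2.22 and the small mitochondrial rRNA at 2.06. The values of 2S and of CR33416 are fitted against at most 3 reads in the non-crosslinked input and depend on the prior count of the fit, so they are no measure of size. That of CR45849 rests on 7 reads in the non-crosslinked IP and 9 in the non-crosslinked input, so its size is uncertain as well.

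The 18S sum moved in opposite directions: both crosslinked pairs had a positive log2 IP over input ratio of the share (0.72 and 0.72), and the non-crosslinked pair had -0.86. For the sum, this difference was not tested on shares. In the fit with members summed by species it was 1.78 (SE 0.76, adjusted p = 0.254).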

How the results depend on the processing

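For crosslinked IP against crosslinked input, the count of calls was 2206 with at least 10 counts in every library, 11728 with no filter beyond 1 read and 3819 with the DESeq2 Wald test. Members higher and lower numbered 26 and 11 with library size alone, where 44.4% of all features were higher and 7.9% lower. They numbered 24 and 12 with limma (7346 of 13471 features called). With at least 10 counts 7 members were higher (2206 of 3266 features called). Leaving out 1 library gave 4385 to 5326 calls, with 11 to 17 members higher and 9 to 29 lower. Against the non-crosslinked IP there were 804 calls with at least 10 counts. Leaving out 1 library gave 2010 to 3136, with 6 to 8 members higher and 11 to 13 lower. For the difference of ratios, DESeq2 size factors gave 180 calls with 0 members higher. With library size alone 9 members were higher and 12 lower, where 1.3% of all features were higher and 1.3% lower. Once rRNA was left out of the library size, members split 9 and 9, against 3.2% and 0.8% of all features. Members higher were 9 with at least 10 counts and 5 with no filter, given without a share over all features. Leaving out 1 library gave 590 to 983 calls, with 1 to 8 members higher and 9 to 13 lower.

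Against annotated reads without any rRNA class, the log2 ratios of the sums were -0.40 for 18S, -0.56 for 28S_Dme, -2.02 for 28S, -2.85 for 5.8S, 4.79 for 2S and -1.47 for pre-rRNA. Against all reads, 28S was at -0.99 and pre-rRNA at -0.44. Leaving out 1 library gave 0.65 to 0.79 for 18S, -0.94 to -0.85 for 28S, -1.84 to -1.61 for 5.8S, 5.61 to 6.32 for 2S, -0.36 to -0.33 for pre-rRNA and 0.48 to 0.65 for 28S_Dme. Inside the repeat it gave 1.00 to 1.13 for 18S, -0.60 to -0.50 for 28S, -1.50 to -1.26 for 5.8S and -1.73 to -1.50 for 28S over 18S.

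Direction turned for some features against the crosslinked input, among them 28S_Dme-53 and CR45863, which had been called lower. With library size alone, 18S CR41548, CR45838 and CR45841 were at 0.69, 0.68 and 0.79, 28S_Dme-53 at 0.0849, 28S_Dme-59 at 0.24, the large mitochondrial rRNA at 0.29, pre-rRNA CR45846 and CR45856 at 0.44 and 0.27, the pseudogene CR45863 at 0.0407 and CR33363 at 0.66. With limma, in the same order without 28S_Dme-53 and CR45863, the values were 0.60, 0.58, 0.70, 0.13, 0.19, 0.34, 0.17 and 0.59. CR45841 was at 0.0334 with DESeq2 size factors and with its Wald test. 28S_Dme-60 was at -0.25 without rRNA, -0.18 with at least 10 counts and -0.25 with no filter. Leaving out 1 library, the 18S copies ran from -0.56 to 0.26, -0.59 to 0.24 and -0.46 to 0.36, 28S_Dme-60 from -0.37 to 0.42, the large mitochondrial rRNA from -1.28 to 0.0162 and CR33363 from -1.003 to 0.22. The causes were not tested.

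With the replicate number as a block there were 7741 calls against the crosslinked input, with 15 members higher and 22 lower, and it changed no count by over 1.5 times. Depth limits the IP libraries most, and the 2 libraries a group allow no exact p below 0.333.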

Other observations

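Copies of 5.8S differed in opposite directions between the crosslinked inputs and the non-crosslinked input. The abundant 5.8S copy CR45842 had 3609 and 3722 CPM in the crosslinked inputs, against 5257 CPM without crosslinking, whereas 5.8S CR40454 had 2717 and 2678 CPM, against 563 CPM. The 5.8S pseudogene CR45849 had 10.1 and 10.4 CPM, against 0.720 CPM. Some other features were lower in the non-crosslinked input, whether rare or abundant. The 5S pseudogene CR33356 had 38.2 and 20.1 CPM, against 0.320 CPM, and the 5S class 61685 and 41265 CPM, against 20947 CPM. The entry 28S_Dme-56 had 48.8 and 85.0 CPM, against 7.93 CPM, and 28S_Dme-60 8947 and 10070 CPM, against 3828 CPM. The snoRNA U14:30Ea had 39.2 and 42.8 CPM, against 0.800 CPM. The inputs were not compared by a test, since the non-crosslinked input is 1 library, and these features were picked after their values were seen.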
